A study of Homo sapiens with 5 samples.

Results

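The cytosolic ribosomal protein genes are those that encode the proteins of the ribosome of the cytoplasm. They were chosen by gene name alone, as genes whose symbol begins with RPL or RPS followed by a number and at most a letter A, X or L with a further number, together with RPLP0, RPLP1, RPLP2 and RPSA. The names matched 84 of the 26485 genes in the count files, 52 of the large subunit and 32 of the small subunit. Of these, 82 passed the filter on low counts, and the remaining pair, RPL10L and RPL3L, had at most 5 reads in any library. RPL10L had 0, 2 and 5 reads in the knockdown libraries, against 5 and 3 in the control libraries. RPL3L had 0, 0 and 2 reads in the knockdown libraries, against 0 and 2 in the control libraries.

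The libraries came from SW480, a human cell line grown from a colorectal cancer. Every group carried dCas9-KRAB, a Cas9 protein that cannot cut DNA joined to the KRAB repressor, which silences the promoter to which a guide RNA brings it. The 3 knockdown libraries came from cells given a guide against AKAP12, which encodes a scaffold protein of protein kinase A, and the 2 control libraries from cells given control guides. RNA was taken 48 hours after seeding, and libraries were read from the 3' end of polyadenylated transcripts. The treatment protocol describes guides, whereas the titles and a label field name the groups shAKAP12 and shControl, so the labels give 2 silencing methods. No label says that the libraries of a group came from separate cultures, and the spread that p-values rest on may be technical.

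The knockdown libraries held 9311026, 6890868 and 7763190 counts and the control libraries 4935096 and 8670141. Values are given as CPM, counts scaled per 1e6 of the library after scaling for composition, in the order of replicate number. AKAP12 had 1159, 1063 and 1008 CPM in the knockdown libraries, against 2870 and 1550 CPM in the control libraries. Its log2 fold change was -1.04 (-0.52 without control 1), and it missed the threshold of 0.05 with an edgeR adjusted p of 0.0513. The control libraries stood far apart from each other: a chi-square per degree of freedom over gene counts was 109.3 between them and 5.50 to 9.13 between pairs of knockdown libraries. TERT, the catalytic subunit of telomerase, took 0.0451%, 0.249% and 0.161% of counts in the knockdown libraries, against 7.43% and 3.54% in the control libraries. Short non-coding RNAs took 0.894%, 0.929% and 0.642% in the knockdown libraries, against 8.64% and 1.73% in the control libraries. All 5 epithelial markers were detected, with a summed 1325 to 1571 CPM in knockdown and 1008 to 1512 CPM in control libraries. Fibroblast markers summed to 391 to 462 CPM in knockdown and 296 to 391 CPM in control libraries, and blood markers to 63.2 to 77.9 CPM in knockdown and 69.6 to 91.5 CPM in control libraries, with none of the 10 genes at 0 reads. The part of library composition or of these markers in the results that follow was not tested.

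A ribosome consists of ribosomal RNA and ribosomal proteins, built in the nucleolus into a small subunit, which decodes the mRNA, and a large subunit, which joins amino acids and passes the new chain through a tunnel. Cells make the proteins in near equal numbers, and surplus protein is degraded. Most of the mRNAs begin with a terminal oligopyrimidine tract, an unbroken run of C and U at the 5' end through which mTOR signalling and LARP1 set their translation. Some ribosomal proteins, RPL5 and RPL11 among them, also bind MDM2 and so raise p53 when ribosome assembly is disturbed. In colorectal tumours ribosome production is commonly raised.

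The start sites of members that moved in each direction are shown because the pyrimidine tract is the feature that these mRNAs are known to share. Each line gives the 30 bases of the gene strand from 15 before to 15 after the RefSeq start (GRCh38.p14), with the longest unbroken run of C or T that touches the 5 bases on either side of the start in capitals. The first 7 genes passed the test as higher in knockdown and the last 6 as lower.
RPS7: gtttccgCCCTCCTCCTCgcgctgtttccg
RPS27: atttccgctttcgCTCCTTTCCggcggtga
RPSA: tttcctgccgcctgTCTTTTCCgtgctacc
RPL27: ccggggtgaaaggTTagcggaagtgtcctt
RPL31: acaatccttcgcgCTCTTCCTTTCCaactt
RPL7A: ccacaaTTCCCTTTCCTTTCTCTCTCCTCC
RPL22L1: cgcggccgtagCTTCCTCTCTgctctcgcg
RPL41: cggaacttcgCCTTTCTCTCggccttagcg
RPL35: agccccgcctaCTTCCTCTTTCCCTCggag
RPS26: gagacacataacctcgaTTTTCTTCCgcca
RPS9: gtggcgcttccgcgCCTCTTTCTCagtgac
RPS27L: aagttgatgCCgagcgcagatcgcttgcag
RPL7L1: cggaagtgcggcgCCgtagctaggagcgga
The windows were, among the higher genes, RPS7 chr2:3575245-3575274 (plus strand), RPS27 chr1:153990747-153990776 (plus strand), RPSA chr3:39406705-39406734 (plus strand), RPL27 chr17:42998404-42998433 (plus strand), RPL31 chr2:101002274-101002303 (plus strand), RPL7A chr9:133348203-133348232 (plus strand) and RPL22L1 chr3:170870181-170870210 (minus strand). Among the lower genes they were RPL41 chr12:56116618-56116647 (plus strand), RPL35 chr9:124861943-124861972 (minus strand), RPS26 chr12:56041903-56041932 (plus strand), RPS9 chr19:54200843-54200872 (plus strand), RPS27L chr15:63157463-63157492 (minus strand) and RPL7L1 chr6:42879601-42879630 (plus strand). RPS7 held a run of 11 bases and RPL7A a run of 25, which extends past the end of the window shown, and RPL41 and RPL35 held runs of 10 and 15, so long runs stood in both directions. RPL27, RPS27L and RPL7L1 had runs of only 2 bases. The RefSeq start lay within 5 bases of the start in the authors' annotation for 20 of the 67 members with a promoter entry, so a short run says only that these letters are not at this start.

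A run of at least 6 bases was found at 49 of the 67 member starts (73.1%), against 2264 of 10568 other tested genes (21.4%). The median longest run was 10 bases in members and 3 in other genes. Split by call, 11 of 14 higher members with an entry, 4 of 6 lower members and 34 of 46 members that did not pass the test held such a run.

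Ribosomal protein reads took a larger share of every knockdown library than of either control library. They made up 9.64%, 9.68% and 9.31% of all counts in the knockdown libraries, against 5.37% and 8.44% in the control libraries. The mean was 9.54% ± 0.203 in knockdown (SD, n = 3) and 6.90% in control (n = 2), a difference of 2.64 percentage points with an exact two-sided permutation p of 0.1, the smallest that 3 libraries against 2 allow. With TERT and short non-coding RNAs taken out of the totals, the shares were 9.73%, 9.79% and 9.38% in knockdown libraries, against 6.40% and 8.90% in control libraries. Without control 1 the difference was 1.11 points and without control 2 it was 4.17 points. The widest 95% Wilson interval of a share spanned 0.0442 points, for counting error only, so the distance between the controls is far beyond counting error. A share does not tell more of these mRNAs per cell from less of other RNA.

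No difference between the large and the small subunit passed a test. Large subunit genes took 55.4%, 55.3% and 57.5% of ribosomal protein counts in the knockdown libraries, against 64.8% and 54.4% in the control libraries. All 3 knockdown libraries lay between the controls, and the difference of -3.52 points had an exact two-sided permutation p of 0.7. The value depended on which members were counted. Without the 13 members whose exons overlap another gene, RPL41 not among them, the difference was -0.061 points. Without RPL41, one gene of the large subunit, the shares were 54.9%, 54.8% and 57.2% in knockdown libraries, against 58.3% and 52.9% in control libraries, a difference of 0.057 points. The sign was also the other way without control 1, at 1.69 points. A Wilson 95% interval of a large subunit share spanned at most 0.364 points.

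**Figure D1:**
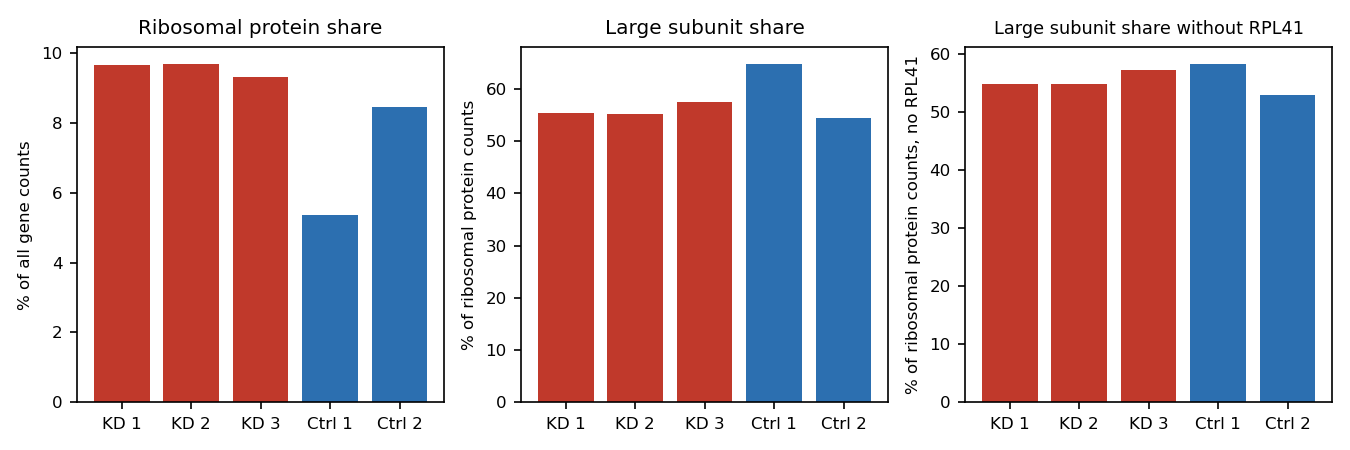
Ribosomal protein share of all counts and large subunit share of ribosomal protein counts, in percent, for each of the 3 knockdown (KD) and 2 control libraries. In the first measure the knockdown libraries (9.31% to 9.68%) lie above both controls (5.37% and 8.44%), and in the second they lie between them.

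Of the 82 tested members, 18 were higher and 7 lower in knockdown at an edgeR adjusted p under 0.05, and 57 did not pass. Among the tested members 22.0% were called higher and 8.54% lower, against 11.2% and 11.4% of all 14536 tested genes (22.6% in either direction). The higher calls were 12 of 50 large subunit and 6 of 32 small subunit members, and the lower calls 4 and 3. The median log2 fold change was 0.80 over members, 0.75 over the large and 0.90 over the small subunit, against 0.04 over all tested genes. The member median was 0.41 without control 1 and 1.504 without control 2. The order of the subunits turned without control 1 (0.43 large and 0.38 small), and without control 2 the medians were 1.27 and 1.76. In 48 of 82 members every knockdown library was above both controls, and in 15 every one was below, against 31.6% and 28.5% of all genes, and the groups overlapped in 19. With scaling by library size alone, the all-gene median moved to 0.23 and the member median to 0.95.

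The calls rest on the small number of libraries. Without any 1 of the knockdown libraries, edgeR called 0 members and 0 genes. At an unadjusted edgeR p under 0.05, 25, 21 and 19 members were higher without knockdown 1, 2 and 3, and 8 were lower in each fit. Genes of any kind at that p, in either direction, numbered 4015 of 14215, 4109 of 14275 and 3774 of 14324 in the same order. A fit without control 1 or control 2 keeps 1 control. Such fits take the spread from the knockdown libraries and assume that a lone control varies like them.

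**Figure D2:**
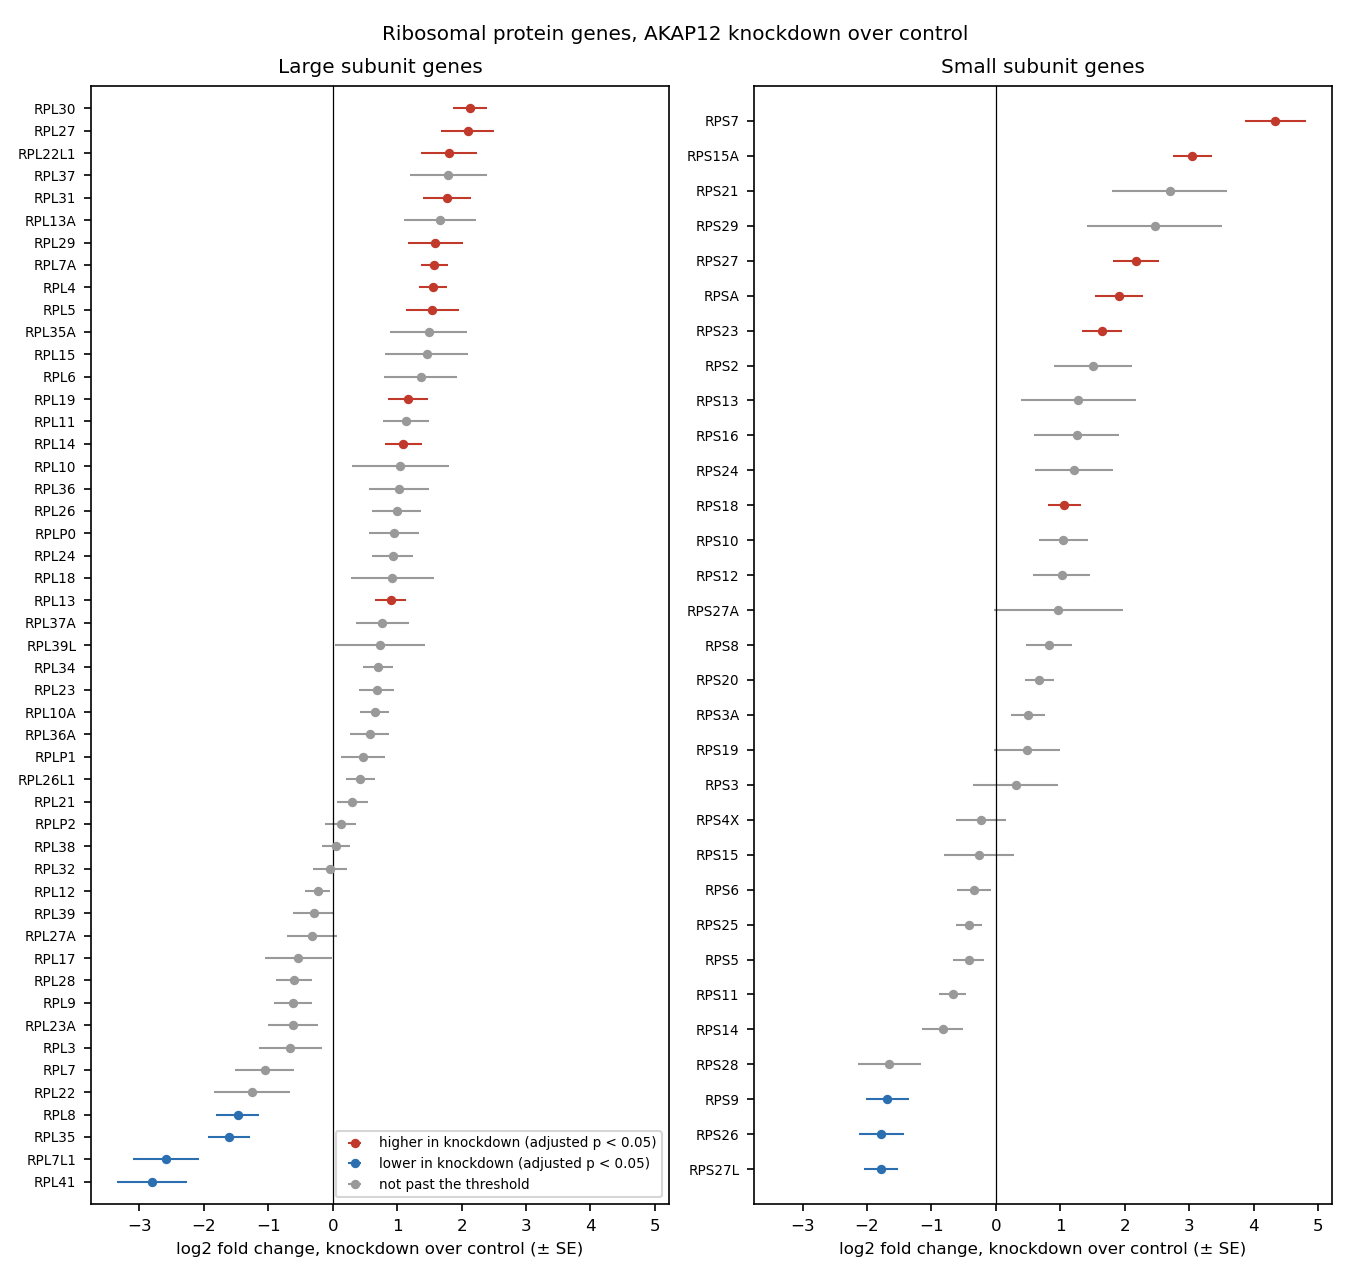
Log2 fold change (knockdown over control) of 80 of the 82 tested members, ordered by size, with bars of 1 SE, in panels for the large and the small subunit and coloured by the edgeR call. The called members run from -2.81 (RPL41) to 4.34 (RPS7), and both subunits hold genes on each side of 0.

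Among small subunit genes, RPS7 stood farthest from the controls. RPS7, an early-assembling protein that also binds MDM2 and is mutated in some Diamond-Blackfan anaemia families, lies at chr2:3575263-3580919 of hg38. RPS7 had 258, 369 and 365 CPM in the knockdown libraries, against 8.82 and 23.2 CPM in the control libraries (log2 fold change 4.34, SE 0.47, edgeR adjusted p = 0.0131). Its lowest knockdown library exceeded its highest control library more than any other called member's did on the ratio scale. Without control 2 the log2 fold change was 5.22 and without control 1 it was 3.83.

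RPS15A, a protein of the small subunit body, had 353, 493 and 594 CPM in the knockdown libraries, against 60.3 and 55.6 CPM in the control libraries. Both controls were low and close together, and the difference on the log2 scale was 3.05 (SE 0.30, edgeR adjusted p = 0.0124), with 3.11 without control 1 and 2.99 without control 2. RPS27, a zinc-finger protein, had 80.0, 154 and 156 CPM in the knockdown libraries, against 31.8 and 26.0 CPM in the control libraries (log2 fold change 2.17, SE 0.35, edgeR adjusted p = 0.0170). All 3 knockdown libraries were above both controls, with the first nearest to them. RPSA, known also as the laminin receptor and needed for small subunit maturation, had 75.6, 114 and 105 CPM in the knockdown libraries, against 16.7 and 35.0 CPM in the control libraries (log2 fold change 1.91, edgeR adjusted p = 0.0217). Its log2 fold change was 1.49 without control 1 and 2.55 without control 2. RPS23, which lines the decoding centre, was higher by a log2 fold change of 1.65, and RPS18, a protein of the head, by 1.07.

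Among large subunit genes, RPL30 and RPL27 combined high read numbers with changes of about the same size. RPL30, whose yeast counterpart binds its own transcript, had 1412, 1453 and 1607 CPM in the knockdown libraries, against 283 and 400 CPM in the control libraries (log2 fold change 2.12, SE 0.26, edgeR adjusted p = 0.0131). RPL27, a Diamond-Blackfan anaemia gene, had 1289, 1252 and 1268 CPM in the knockdown libraries, against 167 and 428 CPM in the control libraries (log2 fold change 2.09, SE 0.42, edgeR adjusted p = 0.0223). The knockdown values of RPL27 lay within a narrow range, while its controls differed from each other. The log2 fold change of RPL27 was 1.57 without control 1 and 2.92 without control 2. RPL31, which sits at the tunnel exit, had 1399, 1624 and 1767 CPM in the knockdown libraries, against 297 and 634 CPM in the control libraries, and without control 2 its log2 fold change of 1.78 was 2.42.

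RPL22L1, the paralogue of RPL22, had 109, 104 and 101 CPM in the knockdown libraries, against 14.9 and 44.4 CPM in the control libraries (log2 fold change 1.80, SE 0.43, edgeR adjusted p = 0.0319). Its log2 fold change was 1.24 without control 1 and 2.81 without control 2. Further large subunit genes called higher had smaller log2 fold changes than RPL22L1: 1.59 for RPL29, 1.57 for RPL7A, 1.56 for RPL4, 1.54 for RPL5, 1.17 for RPL19, 1.09 for RPL14 and 0.90 for RPL13. RPL4 forms part of the wall of the exit tunnel, and RPL19 takes part in a bridge to the small subunit. RPL29, RPL5, RPL19 and RPL14 depended on a control. They were at 1.09, 1.03, 0.81 and 0.75 without control 1, and at 2.40, 2.35, 1.64 and 1.53 without control 2.

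The genes called lower were fewer, and in each of them control 1 was the highest library. RPL41, the shortest ribosomal protein, had 1091, 962 and 712 CPM in the knockdown libraries, against 10186 and 2717 CPM in the control libraries (log2 fold change -2.81, SE 0.54, edgeR adjusted p = 0.0214). The groups did not overlap, but the value was -1.56 without control 1 and -3.47 without control 2. RPL35, which lies at the tunnel exit, had 1673, 1601 and 1542 CPM in the knockdown libraries, against 6464 and 3333 CPM in the control libraries (log2 fold change -1.61, SE 0.33, edgeR adjusted p = 0.0231). RPL35 is the one called member whose exons overlap another gene in the authors' annotation, WDR38 on the opposite strand, and reads were counted without strand.

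RPL8, which reaches the peptidyl transferase centre, had 1262, 1154 and 1180 CPM in the knockdown libraries, against 4464 and 2181 CPM in the control libraries (log2 fold change -1.47, SE 0.33, edgeR adjusted p = 0.0282, and -0.86 without control 1). RPS9, an early-binding protein of the small subunit body, had 276, 272 and 227 CPM in the knockdown libraries, against 1132 and 531 CPM in the control libraries (log2 fold change -1.69, SE 0.33, edgeR adjusted p = 0.0221, and -1.04 without control 1). In both genes the knockdown libraries were close together and below both controls. RPS26, a Diamond-Blackfan anaemia gene whose protein lies at the mRNA exit, had 18.3, 15.5 and 13.3 CPM in the knockdown libraries, against 74.2 and 34.6 CPM in the control libraries (log2 fold change -1.78, SE 0.35, edgeR adjusted p = 0.0219, and -1.13 without control 1).

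The remaining lower calls were of paralogues. RPL7L1, a paralogue of RPL7 known from the nucleolus, had 47.7, 24.6 and 29.6 CPM in the knockdown libraries, against 315 and 96.5 CPM in the control libraries (log2 fold change -2.59, SE 0.51, edgeR adjusted p = 0.0221). Its value was -1.49 without control 1 and -3.20 without control 2. RPS27L, the paralogue of RPS27 and a known p53 target, had 320, 282 and 245 CPM in the knockdown libraries, against 1190 and 753 CPM in the control libraries (log2 fold change -1.78, SE 0.27, edgeR adjusted p = 0.0154). The value of RPS28 lay nearest outside the threshold, with 29.5, 30.1 and 28.9 CPM in the knockdown libraries, against 148 and 39.2 CPM in the control libraries (log2 fold change -1.65, edgeR adjusted p = 0.0514, and -0.41 without control 1).

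**Figure D3:**
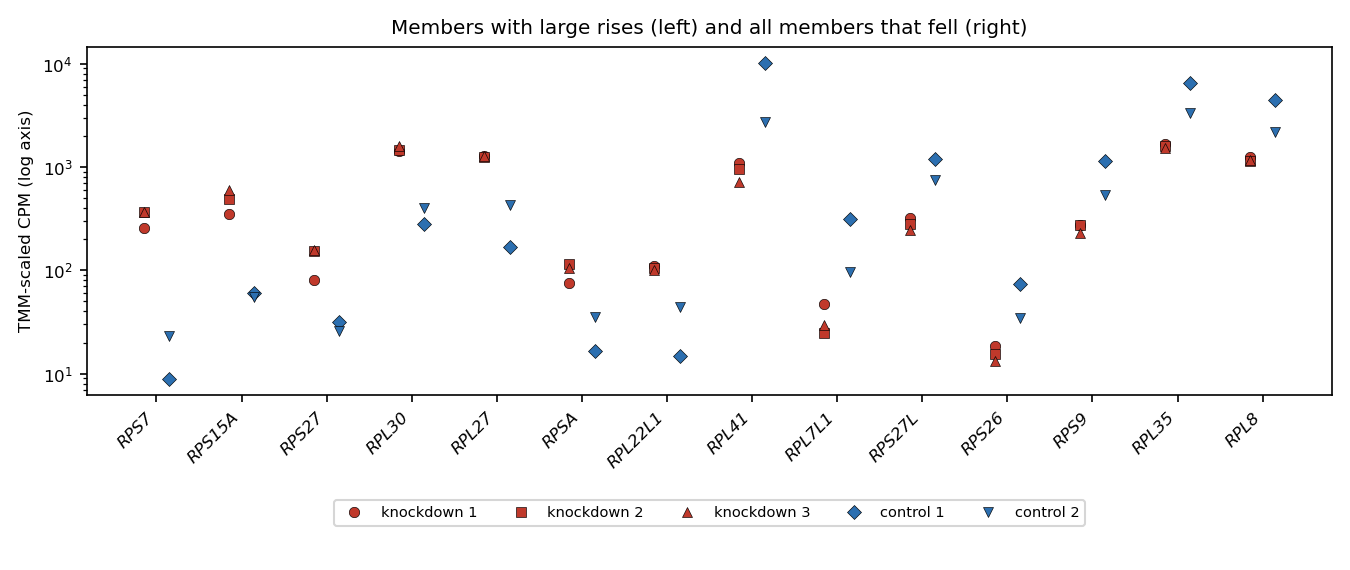
CPM (log axis) in each knockdown (KD) and control library of 7 members with large rises and the 7 lower members among those past the threshold. Knockdown and control points do not overlap in any of the 14 genes, and in all 7 lower genes control 1 is farther from the knockdown libraries than control 2.

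The genes with the highest mean CPM were mostly not called. RPL37A had 5196, 5101 and 4385 CPM in the knockdown libraries, against 1684 and 4056 CPM in the control libraries. RPS27A, which encodes ubiquitin fused to a small subunit protein, had 5825, 5193 and 3847 CPM in the knockdown libraries, against 244 and 4807 CPM in the control libraries (log2 fold change 0.97, edgeR adjusted p = 0.496). Its groups overlapped, since control 2 fell among the knockdown libraries, and the log2 fold change was 0.05 without control 1 and 4.34 without control 2. RPL27A had 3431, 3358 and 2600 CPM in the knockdown libraries, against 2380 and 5415 CPM in the control libraries, and RPL26 had 4075, 3669 and 4420 CPM in the knockdown libraries, against 1258 and 2822 CPM in the control libraries. RPS14, the fifth by mean CPM and a gene of the 5q region lost in some myelodysplastic syndromes, had 2690, 2479 and 2030 CPM in the knockdown libraries, against 5449 and 3069 CPM in the control libraries (log2 fold change -0.83, edgeR adjusted p = 0.103).

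Of the 57 members that did not pass, 20 had a log2 fold change of at least 1 in either direction and 19 had an unadjusted p under 0.05. Among them RPS21 had 2309, 2720 and 2697 CPM in the knockdown libraries, against 67.6 and 724 CPM in the control libraries (log2 fold change 2.70, SE 0.89, edgeR adjusted p = 0.0685). RPS29 had 2088, 2440 and 1750 CPM in the knockdown libraries, against 36.7 and 718 CPM in the control libraries (log2 fold change 2.47, SE 1.05, edgeR adjusted p = 0.125). In both the knockdown libraries were far above both controls, and the controls differed widely: the log2 fold change was 1.83 for RPS21 and 1.55 for RPS29 without control 1, and 5.25 and 5.83 without control 2.

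The stalk proteins, which recruit the elongation factors to the large subunit, did not pass the test over all 5 libraries. RPLP0 had 390, 405 and 518 CPM in the knockdown libraries, against 133 and 320 CPM in the control libraries. RPLP1 had 2314, 2213 and 2293 CPM in the knockdown libraries, against 1066 and 2223 CPM in the control libraries. RPLP2 had 2162, 2052 and 2053 CPM in the knockdown libraries, against 1710 and 2130 CPM in the control libraries. Their log2 fold changes were 0.95, 0.47 and 0.12, with edgeR adjusted p of 0.113, 0.346 and 0.727, and RPLP0 alone had an unadjusted p under 0.05, at 0.0438. DESeq2 called 0 of the 3 as well, with adjusted p of 0.0601, 0.336 and 0.767, and RPLP2 was at -0.03 without control 1. RPLP0 was at 0.45 without control 1 and 1.71 without control 2, and RPLP1 was at 0.03 and 1.09 in the same order.

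RPL5 and RPL11 enter the ribosome together with the small 5S ribosomal RNA. RPL5 had 1990, 1847 and 2092 CPM in the knockdown libraries, against 387 and 969 CPM in the control libraries (log2 fold change 1.54, edgeR adjusted p = 0.0395). RPL11 had 1187, 1118 and 1109 CPM in the knockdown libraries, against 326 and 708 CPM in the control libraries (log2 fold change 1.14, edgeR adjusted p = 0.0579). In both genes every knockdown library was above both controls. The side of the threshold depended on the method: RPL11 passed with DESeq2 (adjusted p = 0.00996), limma-voom (0.0362) and edgeR with no filter (0.0335), and RPL5 missed with library size alone (0.0537). The log2 fold change of RPL11 was 0.69 without control 1 and 1.80 without control 2.

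By position and disease role the calls were mixed. Of 9 genes of the tunnel and its exit, 3 were higher (RPL4, RPL19 and RPL31) and 1 lower (RPL35), with a median log2 fold change of -0.30, whose sign turned without either control (0.52 without control 1 and 0.31 without control 2). Of 14 genes of the small subunit head, 1 was higher (RPS18), with a median of 0.82 (0.25 without control 1 and 1.76 without control 2). Of 16 Diamond-Blackfan anaemia genes, 5 were higher (RPS7, RPS27, RPL5, RPL27 and RPL31) and 1 was lower (RPS26), with a median of 1.41 (0.72 without control 1 and 2.39 without control 2). Counts over such short lists are descriptions, beside 11.2% and 11.4% of all genes called in each direction.

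Each gene's share of the summed ribosomal protein reads, here called the pool, is free of scaling between libraries. The 5 genes with the most reads held 23.5%, 22.5% and 20.5% of the pool in the knockdown libraries, against 47.2% and 24.9% in the control libraries. In knockdown libraries 16, 16 and 17 genes were needed to make up 50% of the pool, against 6 and 13 genes in control libraries. Control 1 was the library apart, since a few genes held most of its ribosomal protein reads.

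RPL41 held 1.19%, 1.08% and 0.80% of the pool in knockdown libraries, against 15.7% and 3.24% in control libraries. RPL35 held 1.82%, 1.79% and 1.74% in knockdown libraries, against 9.95% and 3.97% in control libraries. RPS14 held 2.93%, 2.78% and 2.28% in knockdown libraries, against 8.39% and 3.66% in control libraries, and RPL8 held 1.37%, 1.29% and 1.33% in knockdown libraries, against 6.87% and 2.60% in control libraries. All 4 were lower in every knockdown library than in either control. In 47 of 84 members the share of the pool was higher in every knockdown library, in 21 lower, and in 16 the groups overlapped. All 18 members called higher and all 7 called lower moved the same way in this measure, which uses the same reads.

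**Figure D4:**
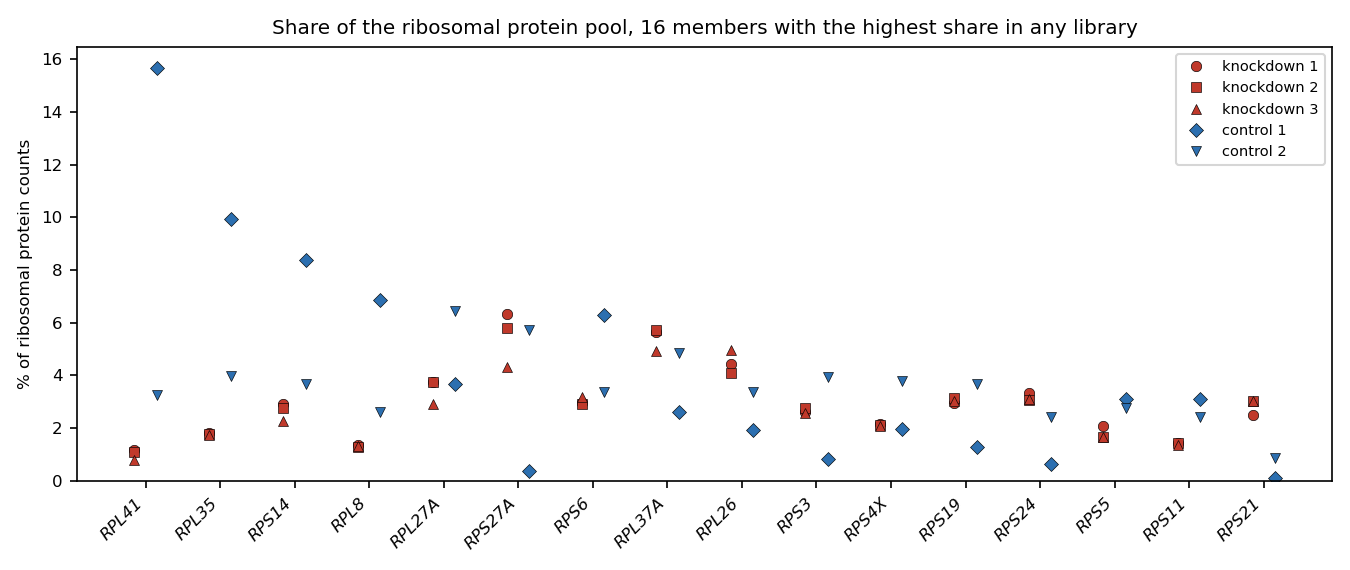
Percent of all ribosomal protein counts held by single members in each knockdown (KD) and control library. RPL41, RPL35, RPS14 and RPL8 take 15.7%, 9.95%, 8.39% and 6.87% of the pool in control 1, and at most 2.93% in any knockdown library.

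A paralogue set against its partner gives a ratio within each library, and 7 such pairs were in the files. RPS27L and RPS27 moved in opposite directions: the ratio of their counts was 3.999, 1.83 and 1.57 in knockdown libraries, against 37.4 and 28.9 in control libraries. RPL22L1 over RPL22 was 0.674, 0.505 and 0.492 in knockdown libraries, against 0.0195 and 0.302 in control libraries. RPL22, a large subunit protein that is often mutated in colorectal cancer with microsatellite instability, had 162, 207 and 205 CPM in knockdown libraries, against 768 and 147 CPM in control libraries. RPL22 did not pass the test (log2 fold change -1.25, edgeR adjusted p = 0.157, and 0.38 without control 1). Its sign thus turned on control 1.

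RPL7L1 over RPL7 was 17.9, 18.4 and 16.1 in knockdown libraries, against 85.7 and 21.6 in control libraries. This ratio rests on 26, 10 and 15 reads of RPL7 in knockdown libraries, against 15 and 39 reads in control libraries. Its nearest values, 18.4 and 21.6, thus rest on 10 and 39 reads. RPL26L1 over RPL26 was 0.0196, 0.0175 and 0.0155 in knockdown libraries, against 0.0360 and 0.0211 in control libraries. RPL39L over RPL39 was 0.00410, 0.00447 and 0.00659 in knockdown libraries, against 0.00105 and 0.00265 in control libraries. The RPL39L ratio rests on 11, 11 and 14 reads of RPL39L in knockdown libraries, against 1 and 11 reads in control libraries, so its lowest value is a single read. In these 5 pairs the groups did not overlap, with an exact two-sided permutation p of 0.1 each, the smallest that 3 libraries against 2 allow and the same after Benjamini-Hochberg adjustment over the 5. For RPL3L over RPL3 and RPL10L over RPL10, which rest on at most 5 reads of the paralogue, the groups overlapped. Reads that fit several places equally were not requested in counting, so ratios compare libraries and not the levels of a gene pair.

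**Figure D5:**
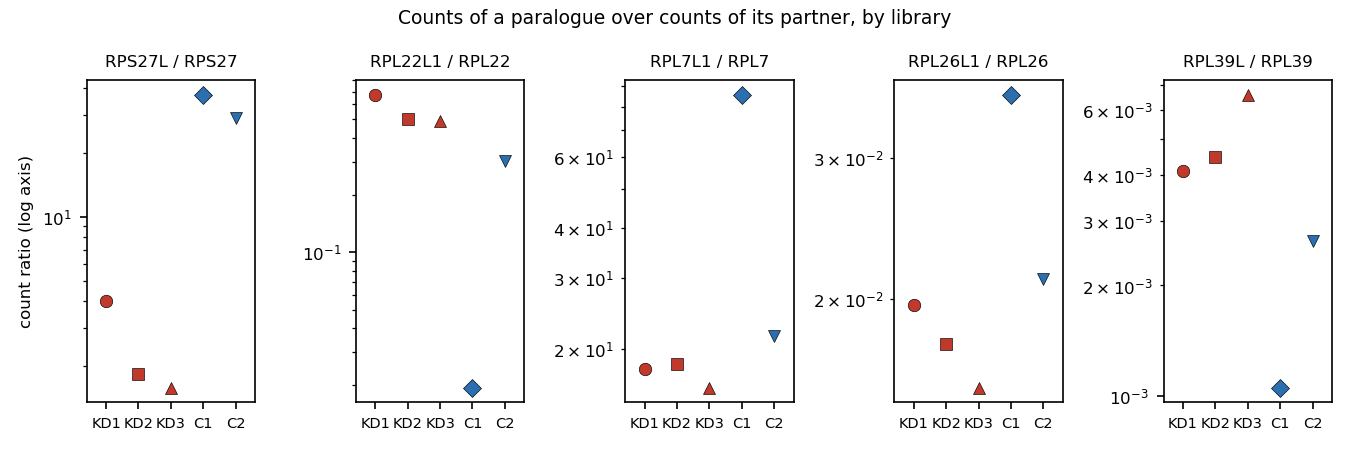
Ratio of paralogue counts to partner counts (log axis) in each knockdown (KD) and control library for the 5 pairs whose groups did not overlap. RPS27L over RPS27 is at 1.57 to 3.999 in knockdown and 28.9 to 37.4 in control libraries, and RPL22L1 over RPL22 is higher in knockdown.

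The controls disagreed with each other over most members. Control 2 over control 1 was a CPM ratio of at least 2 in 41 members and at most 0.5 in 9, with a median of 1.90, from 0.191 for RPL22 to 19.7 for RPS27A. The highest over the lowest knockdown library had a median ratio of 1.20. In 54 of 82 members control 2 lay between control 1 and all 3 knockdown libraries, against 47.3% of all tested genes. Every knockdown library was above control 1 in 61 members and above control 2 in 50, and below control 1 in 20 and below control 2 in 23. The shares of all tested genes were not counted for either control alone, so these counts do not set members apart.

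Ribosomal proteins outside the name rule were read separately. RPL36AL, a close copy of RPL36A, had 167, 180 and 220 CPM in knockdown libraries, against 35.8 and 43.7 CPM in control libraries (log2 fold change 2.25, edgeR adjusted p = 0.0126). Reads that fit both genes equally were not requested in counting. FAU, a ubiquitin-like fusion to a small subunit protein, had 1763, 1713 and 1513 CPM in knockdown libraries, against 188 and 1363 CPM in control libraries (log2 fold change 1.10, edgeR adjusted p = 0.288, with 0.29 without control 1 and 3.14 without control 2).

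Of 18 other tract-bearing mRNAs, 3 were higher (16.7%) and 2 lower (11.1%), with a median of 0.45, near the 11.2% and 11.4% of all genes. Their median was 0.24 without control 1 and 0.67 without control 2. EIF3E and EIF3H, subunits of an initiation factor, had log2 fold changes of 2.06 and 1.80 (edgeR adjusted p 0.0254 and 0.0390). Their values were 1.52 and 1.20 without control 1, and 3.04 and 2.87 without control 2. EEF1D and EEF1A1, elongation factors, had -1.34 and -0.99 (edgeR adjusted p 0.0219 and 0.0355). Of 11 regulators of ribosomal protein mRNA, 3 were called, all lower. The median over the 11 was -0.53, with -0.29 without control 1 and -0.73 without control 2. The called genes were TSC2 at -1.33, RPTOR at -1.25 and RPS6KB2 at -1.35, and without control 1 they were at -0.76, -0.79 and -0.67. MTOR did not pass, at -0.88 (edgeR adjusted p = 0.0663, and -0.44 without control 1).

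Of 10 tested chaperones and export factors of ribosomal proteins, 3 were higher and 3 lower, against 11.2% and 11.4% of all genes. Their median was 0.39, with 0.24 without control 1 and 0.47 without control 2. PDCD2L, an export factor of the small subunit, was at 1.41 and AAMP, a chaperone, at 1.29. BCCIP, the chaperone of RPL23, was at -2.05 and GRWD1, the chaperone of RPL3, at -1.07 (edgeR adjusted p 0.0148 to 0.0264 for the 4 genes).

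The proteins of the mitochondrial ribosome, encoded by other nuclear genes, were read beside the cytosolic ones. Of the 82 tested cytosolic members 18 were higher and 7 lower, with a median of 0.80, and of 77 mitochondrial genes 25 were higher (32.5%) and 7 lower (9.09%), with a median of 0.66, against 11.2% and 11.4% of all genes. The mitochondrial median was 0.39 without control 1 and 0.94 without control 2. MRPL34 had a log2 fold change of 3.99 (3.53 without control 1 and 4.89 without control 2), MRPS23 2.12, MRPL47 1.41 and MRPS26 -1.76 (edgeR adjusted p 0.0126 to 0.0163). The difference between the sets was not tested.

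Small nucleolar RNAs, many of which lie in introns of ribosomal protein genes, were mostly not called. Of 117 tested, 1 was higher, 31 were lower (26.5%, against 11.4% of all genes) and 85 did not pass, with a median of -0.94. With library size alone 20 were lower, against 6.76% of all genes. The median was -0.55 without control 1 and -1.58 without control 2. SNORD13 was at -2.72, SNORD26 at -2.65, SNORD89 at -3.82 and SNORD57 at -4.60, and SNORD26, SNORD89 and SNORD57 were at -1.35, -1.79 and -1.77 without control 1. Named pseudogene copies of members, 20 tested, had 1 higher and 3 lower, with a median of -0.50 (-0.09 without control 1 and -0.92 without control 2). RPS15AP10 was at 2.12, the direction of RPS15A, whereas RPSAP58 was at -1.47 (-0.70 without control 1) and RPSA was higher. Reads that fit a member and a copy equally were not requested in counting, so levels of members with many copies are uncertain.

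GC content, length and pseudogene copies were set beside the changes. Across the 82 tested members, as a description over genes that share libraries, Spearman's rho of the log2 fold change was 0.03 with GC content, 0.18 with the number of named pseudogene copies and -0.15 with mRNA length. The median number of copies was 12.5 in members called higher, 3 in those called lower and 9 in those not called. RPL23A had 91 named copies, RPSA 74, RPL21 66 and RPL7 61, and RPL7, a major large subunit protein, had a mean of only 2.80 CPM over the 5 libraries. Exons of 13 members overlapped another gene, and 4 members, RPL21, RPS9 and RPS18 among them, had more than 1 locus in the authors' annotation.

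In the authors' deposited table of fold changes, 83 members had an adjusted p-value, and 31 were positive and 9 negative at 0.05, against 12.6% and 12.7% of all genes with a value. The authors' deposited table does not state the direction of its fold changes, which was read from their Pearson correlation of 0.999 across 14536 genes with those computed here. In the authors' deposited table all 18 members called higher here were positive past 0.05 and all 7 called lower were negative. It rests on the same libraries, and its member median of 0.789 is that of DESeq2 here, which also called those 18 and 7. The overlap is therefore not separate evidence.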

How the data were processed

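Gene counts were deposited per library. FeatureCounts 1.6.2 summed reads on exons into a count per gene, per the file headers, keeping reads that overlap several genes for each of them, with no strand setting and no request for multi-mapping reads. STAR 2.7, DESeq2 1.22 and hg38 are named in the submitters' processing notes. The authors' deposited comparison table holds log2 fold changes, p-values, a mean signal over libraries and a test statistic, read here as a score.

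Counts of 14536 genes that passed filterByExpr (minimum count 10) were fitted with edgeR 4.0.16 (R 4.3.3; TMM factors; quasi-likelihood test, two-sided), knockdown over control, with Benjamini-Hochberg adjustment over all genes and a threshold of 0.05. SE is the size of the fold change (log2) over the square root of F. Shares and ratios used an exact permutation test. The named members are the largest called changes, the highest by mean CPM, the paralogue pairs, the stalk, RPL5 and RPL11. RPS21, RPS28, RPS29, and other members named only by their values or position, were chosen after their values were seen. Members and lists were chosen with earlier results of these data known. On simulated data with known changes, edgeR called 84 of 100 genes changed 4-fold, 9 of 100 changed 2-fold and 2 of 14256 unchanged genes. The simulation gave every gene the same spread in both groups and held no control that stood apart. It thus does not give the rate of false calls in these libraries. A count of 3 equals 0.322 to 0.435 CPM in knockdown and 0.346 to 0.608 CPM in control libraries. Alternatives were limma-voom (limma 3.58.1), DESeq2 1.42.0, other scaling and filters, a replicate block, and leaving out libraries or genes. Promoter sequences are from RefSeq (GRCh38.p14; 67 of 84 members matched), and copies, GC and length from GENCODE. A few genes are counted in the totals but not reported by name here.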

Additional observations from a re-analysis of the deposited data

How the results depend on the processing

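Calls of 18 higher and 7 lower members stayed within 1.5 times under RLE factors (17 and 8), library size alone (17 and 7), no filter (23 and 8), a filter of 5 CPM in 2 libraries (18 and 8), removal of TERT and short RNAs (18 and 8) and limma-voom (25 and 8). DESeq2 called 33 higher and 10 lower of 84 members tested, against 9.93% and 10.0% of all 20897 genes tested with it. Fits that keep 1 control called more genes of any kind, so their member counts are not comparable with 18 and 7. Leaving out 1 library gave 0 to 56 higher and 0 to 17 lower. Replicate numbers correlated at -0.05 and -0.08 over the shared numbers, so they do not pair the libraries, and a replicate block left 3 higher (RPS7, RPS15A and RPSA) and 1 lower (RPL7L1). The median log2 fold change of members, 0.80, was 0.95 with library size alone, 0.84 with the stricter filter, 0.90 with the replicate block, 0.91 with limma-voom and 0.41 to 1.504 without 1 library. The ribosomal protein share difference ran from 1.11 to 4.17 points without 1 library. The large subunit difference of -3.52 points ran from -8.73 to 1.69 without 1 library. It was -0.061 without members whose exons overlap another gene, -4.15 without paralogues and 0.057 without RPL41, the last an alternative chosen after seeing the data. No called member changed sign in any setting run. Among the members named here, calls lost were RPL5 (0.0537) and RPL29 (0.0546) with library size alone and RPL13 (0.0512) with RLE, as adjusted p, beside those lost with the block or without a knockdown library. Calls gained were RPL11 (no filter 0.0335, limma-voom 0.0362, DESeq2 0.00996), RPS21 (0.0235, 0.0325 and 0.00103 in the same order), RPL26 (DESeq2 0.0332), RPS14 (DESeq2 0.0486) and RPS28 (0.00777 to 0.0498 with RLE, either filter change, TERT and short RNAs removed or DESeq2), and further ones without 1 control. Among named members that were not called, the sign turned without control 1 and was kept without control 2 for RPL22 (0.38 and -2.01), RPL3 (0.22 and -1.23) and RPLP2 (-0.026 and 0.28). It was kept without control 1 and turned without control 2 for RPL27A (-0.79 and 0.39) and RPL39 (-0.72 and 0.31). The cause was not tested. Depth limits RPL10L and RPL3L.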
